A study of Homo sapiens with 4 samples.

Results

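The HERC ubiquitin ligases are a family of 6 human genes, HERC1 to HERC6, and its members were taken by gene symbol from 25066 genes measured by RNA sequencing. All 6 were among the 16945 genes that could be compared between genotypes. The family was selected on the measured log2 difference of HERC6, which fell strongly in this same comparison, so the members' differences are given with their standard errors as a description. No p value is given for them, and nothing is concluded from whether a member passed a threshold.

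The cells were NUDUL1, a line from a human diffuse large B cell lymphoma of the germinal center type. They were derived from a single-cell clone with doxycycline-inducible Cas9 (labelled Cas9 engineered) and had been transduced with Tbxa2r, the thromboxane A2 receptor, from a retroviral vector with a Thy1.1 marker. Cells expressing a control sgRNA (labelled Control) were compared with cells expressing 1 sgRNA against GNA13, which encodes the G protein subunit Gα13 (labelled GNA13-deficient), to ask how gene expression depends on Gα13 signaling. Both received U46619, a thromboxane receptor agonist, at 10 nM for 24 h, so no untreated cells entered the comparison. There were 2 libraries per genotype, with 29209544 to 31537955 mapped reads each. The p values below measure only the spread between these replicates, which may be technical.

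HERC proteins are E3 ubiquitin ligases that combine a HECT domain, which takes ubiquitin from an E2 enzyme before passing it to a substrate, with repeats like those of the chromatin protein RCC1. HERC1 and HERC2 are giant proteins, whereas HERC3 to HERC6 are small and carry a single RCC1-like domain. HERC5 and HERC6 are induced by interferon, and human HERC5 is the main ligase for the ubiquitin-like protein ISG15, a role that Herc6 has in mice.

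The small and large members differ in gene structure as well as in size. On GRCh37, HERC1 (Entrez 8925) occupies chr15:63900817-64126147 on the minus strand, with 78 exons in its longest transcript and 4861 residues. HERC2 (8924) lies on the same chromosome at chr15:28356186-28567325, also on the minus strand, with 93 exons and 4834 residues. HERC4 (26091) is at chr10:69681656-69835058 on the minus strand, with 1057 residues. The other 3 genes stand side by side on the plus strand of chromosome 4. They are HERC6 (55008) at chr4:89299891-89364249, with 1022 residues, HERC5 (51191) at chr4:89378270-89427314, with 1024 residues, and HERC3 (8916) at chr4:89513585-89629692, with 1050 residues. HERC6 ends 14.02 kb before HERC5 begins, and by these positions 86.3 kb separate HERC5 from HERC3. RefSeq also lists a start of HERC3 that lies nearer to HERC5.

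The promoters of the interferon-inducible neighbours are printed because their upstream letters differ, though HERC5 was close to undetected in both genotypes. They are the 250 bases before the RefSeq start of each gene, on the plus strand of GRCh38.p14, at chr4:88456869-88457118 for HERC5 and chr4:88378602-88378851 for HERC6. Capitals mark the core letters of the interferon-stimulated response element, GAAA followed by any 2 bases and GAAA again, searched on both strands.
HERC5: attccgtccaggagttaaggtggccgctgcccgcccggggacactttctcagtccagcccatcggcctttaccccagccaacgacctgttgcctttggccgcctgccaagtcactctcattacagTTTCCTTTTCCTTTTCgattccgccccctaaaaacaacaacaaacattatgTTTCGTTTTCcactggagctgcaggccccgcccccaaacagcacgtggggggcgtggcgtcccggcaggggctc
HERC6: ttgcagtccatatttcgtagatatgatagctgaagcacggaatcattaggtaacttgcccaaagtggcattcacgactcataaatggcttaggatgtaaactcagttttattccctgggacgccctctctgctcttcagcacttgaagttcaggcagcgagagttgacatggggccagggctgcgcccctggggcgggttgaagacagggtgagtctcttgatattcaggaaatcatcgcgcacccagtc
HERC5 held 3 matches, all on the minus strand, at -125 to -116, -119 to -110 and -74 to -65 from the start, and the first and second overlap. It also held the E-box CACGTG at -33 to -28. HERC6 held none of the core letters, CACGTG or the GAS letters TTCNNNGAA in this window or in the 50 bases after the start, nor did HERC1, HERC2, HERC4 or either start of HERC3. Of 35116 RefSeq promoters of the same length, 3.57% held the core letters, 7.66% TTCNNNGAA and 7.26% CACGTG. A match is a run of letters and not a site shown to be bound.

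HERC6 was the member that differed most. Its normalized read count, on the log2 scale, was 6.79 and 6.59 in control libraries against 3.50 and 2.43 in the libraries that carry the GNA13-deficient label. Every control library lay above every GNA13-deficient one, and the gap was far wider than the distance between replicates of either genotype. The log2 difference was -3.73 (standard error 0.45, n = 2 per genotype), which ranked 196 from the lowest among 16945 genes. HERC6 rested on few reads, 109 and 98 in control against 11 and 5. Scaled for library size, the summed reads were 12.3-fold higher in control (95% exact interval 7.41 to 21.96, for counting error only). HERC6 no longer passed the threshold in limma with any 1 of the 4 libraries left out, when no gene of the table passed, or with no filter on low values. With a library left out its difference lay between -4.27 and -3.20. In bulk RNA, fewer cells expressing a gene and less of its RNA per cell cannot be told apart.

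HERC5, its neighbour, was close to undetected. It had 2 and 5 reads in the control libraries and none in either GNA13-deficient library, where a count of 0 allows up to 3 reads. It entered the comparison only through the control genotype. These counts are too low to give a fold.

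The remaining members were expressed well and differed by much less. HERC2 had log2 values of 11.90 and 12.32 in control and 11.74 and 11.42 in GNA13-deficient libraries, a difference of -0.53 (standard error 0.17, n = 2). The genotypes did not overlap, though replicates within a genotype stood as far apart as 0.41. Leaving out 1 library gave -0.74 (without control replicate 1), -0.32 (without control replicate 2), -0.69 and -0.37 (without GNA13-deficient replicates 1 and 2), and median centring -0.32. HERC1, which has been linked to control of cell growth and membrane traffic, had values of 10.82 and 11.15 against 10.83 and 10.44, a difference of -0.35 (standard error 0.17, n = 2). The genotypes overlapped for HERC1, since GNA13-deficient replicate 1 lay just above control replicate 1. Its difference was -0.52 and -0.19 without control replicates 1 and 2, -0.54 and -0.16 without GNA13-deficient replicates 1 and 2, and -0.14 with median centring.

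HERC4 had values of 10.80 and 10.67 in control and 10.58 and 10.54 in GNA13-deficient libraries. The difference was -0.18 (standard error 0.07, n = 2) with no overlap. It was -0.20 under quantile normalization and -0.14 with voom, but became 0.03 when each library was centred on its median. The direction for HERC4 thus depends on which scaling is used. HERC3 had values of 9.73 and 9.76 against 9.98 and 9.75, a difference of 0.13 (standard error 0.10, n = 2). The genotypes overlapped for HERC3, whose level in GNA13-deficient replicate 2 lay between those of the control libraries. Without GNA13-deficient replicate 1 the difference was 0.01, without replicate 2 it was 0.24, and median centring gave 0.33. The family thus held a large difference in HERC6 and small ones, of either sign, in the 4 abundant members.

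**Figure D1:**
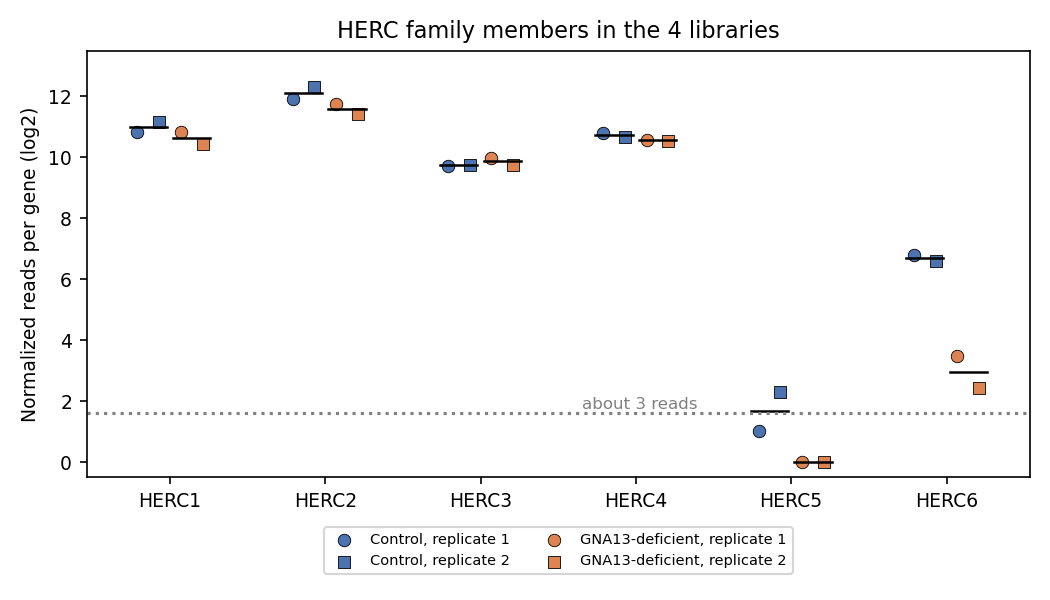
Normalized read counts (log2, vertical axis) of the 6 HERC members in each library, with circles for replicate 1, squares for replicate 2, short lines for the mean of each genotype and a dotted line at about 3 reads. HERC6 falls from 6.79 and 6.59 to 3.50 and 2.43, while HERC1 to HERC4 stay between 9.73 and 12.32 in every library but for small shifts.

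By limma with Benjamini-Hochberg adjustment over all genes tested, 1 of the 6 members passed an adjusted p of 0.05, HERC6, against a background of 29.7% of all genes (13.1% higher and 16.6% lower). The genotypes did not overlap for 4 of 6 members, against 65.3% of all genes. Nothing is read from these counts, since HERC6 was chosen for its fall. The median log2 difference of all genes was -0.02. Centring each library on its median moved it by 0.21, to 0.18, and changed the higher genes among those called from 2218 of 5037 to 4311 of 6235 (69.1%). Quantile normalization moved the median by 0.09, to 0.07, and gave 2741 higher of 5288 (51.8%).

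**Figure D2:**
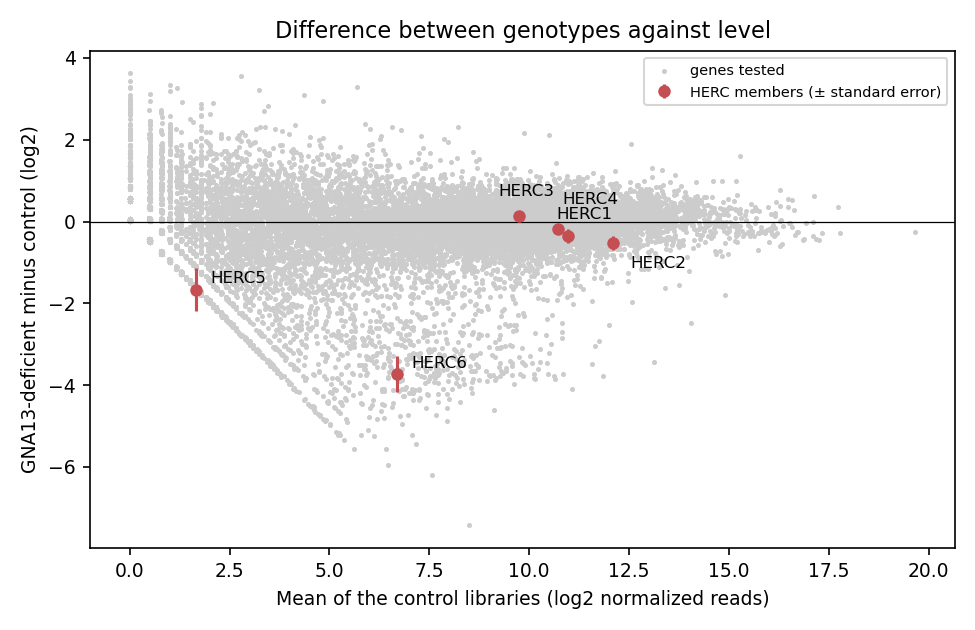
Log2 difference, GNA13-deficient minus control (vertical axis), against the mean of the control libraries (horizontal axis, log2 normalized reads), with grey points for the genes tested and red points with standard errors for the HERC members. HERC6 lies at -3.73, and HERC1 to HERC4 lie between -0.53 and 0.13, with HERC4 moving to 0.03 under median centring.

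Levels were compared between members per kilobase of the longest transcript, in normalized reads. HERC4 was the highest, with 400 and 368 in control and 343 and 334 in GNA13-deficient libraries. HERC2 had 249 and 332 against 222 and 178, and HERC3 had 172 and 176 against 206 and 175. HERC4 and HERC2 lay apart in every library, whereas HERC2 and HERC3 overlapped among GNA13-deficient libraries. Per kilobase of coding sequence HERC3 passed HERC2 there, with means of 297 and 212. HERC1 followed with 119 and 150 against 120 and 91.5, and lay below HERC3 throughout. HERC6 had 29.3 and 25.5 against 2.99 and 1.42, and HERC5 at most 1.40. The order was the same in all 4 libraries.

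HERC1 and HERC2, the members with the longest transcripts (15197 and 15364 bases), shared a pattern among replicates. Both were highest in control replicate 2 and lowest in GNA13-deficient replicate 2. Of 371 genes with a transcript of 10 kb or more, 23.2% had these same extremes, compared with 12.7% of 2120 genes of 5 to 10 kb and 5.21% of 5840 shorter genes. This grouping by length was made after the values were seen. Its part in the differences of HERC1 and HERC2 was not tested.

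HERC2 also has pseudogene copies, and the sources used here do not say how reads common to HERC2 and its copies were counted. Of 8 listed, 2 were in the table, and limma called 0, also at an unadjusted p under 0.05. HERC2P2 had log2 values of 9.14 and 8.53 in control and 8.38 and 7.13 in GNA13-deficient libraries, a difference of -1.08, while HERC2P4 had at most 3 reads. The effect of such reads on the level of HERC2 was not tested, so that level is uncertain.

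GNA13 itself (Entrez 10672) had log2 values of 12.46 and 12.45 in control and 13.10 and 13.11 in GNA13-deficient libraries. Its mRNA was higher, not lower, where the gene was targeted, by 0.65 (standard error 0.05, adjusted p = 0.00214 from limma), and every direction here rests on the labels. B cell markers fitted the labelled line, with all 6 at log2 values of 10.21 to 14.33, as did all 5 germinal center markers (4.81 to 14.08), of which BCL6 was lower in GNA13-deficient libraries. The T cell markers CD3E, CD3D and CD2 were at 0 in every library.

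HERC6 was not alone in its pattern. The genes nearest to it, by distance over the 4 libraries between log2 values centred on the control mean, were DLG2 (distance 0.27), HOXA10 (0.37), GIMAP4 (0.38), ARSD (0.47) and RCN1 (0.51), out of 8470 candidates. DLG2, a synaptic scaffold protein, had log2 values of 8.985 and 8.999 in control and 5.62 and 4.86 in GNA13-deficient libraries. HOXA10, a homeobox factor, had 9.69 and 9.87 against 6.41 and 5.69. Like HERC6, both were lower in replicate 2 than in replicate 1 of the GNA13-deficient libraries. The log2 differences of the 5 genes ran from -3.83 to -3.55. Both likenesses follow from the choice of these genes by distance over the same values and are no separate result. The genes nearest to HERC5 were TTC28, TRAF3IP2 and CORO1B (0.69 to 0.73), at a distance that its few reads leave loose.

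The distribution of differences had a separate low peak at the size of the HERC6 fall. Among 10137 other genes with a control mean at or above the 6.69 of HERC6, the number per bin of 0.5 went down to 39 between -2.5 and -2.0. It then rose to 80 between -4.0 and -3.5, the bin that holds HERC6. In all, 258 of these genes (2.55%) had a difference under -2.5, with a median of -3.46, and 0 had a difference over 2.5. Choosing genes by their control level leaves out genes low in control, including any that rose, so the numbers of falls and rises are not comparable. The limits were set after the values were seen, and no test was made.

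Some markers of other cell types fell as well. Of 4 myeloid markers 2 passed the threshold downward, of 4 T cell markers 1 and of 3 plasma cell markers 1, against 16.6% of all genes. These lists are too short to be set against that share. The plasma cell marker was PRDM1, which went from 8.02 and 8.12 to 6.15 and 6.30. SDC1 (4.195 and 4.369 in control against 3.845 and 4.012) and XBP1 (12.55 and 12.67 against 12.28 and 12.42), also of plasma cells, did not pass. ITGAM, an integrin of myeloid cells, had log2 values of 6.99 and 7.16 in control and 1.62 and 2.11 in GNA13-deficient libraries, and LYZ, lysozyme, had 6.40 and 6.35 against 3.50 and 4.19. CD4 had 6.87 and 7.43 against 3.62 and 2.43. The summed myeloid level was 228 and 242 normalized reads in control and 27.7 and 26.9 in GNA13-deficient libraries, and the summed T cell level, all from CD4, was 117 and 172 against 12.3 and 5.38. Of the other markers of these lists, CSF1R had 15 and 16 reads in control and 13 and 4 in GNA13-deficient libraries, with CD14 at 1 and 2 reads in control and 0 in GNA13-deficient libraries, and CD3E, CD3D and CD2 at 0. Whether RNA of other cells in the control libraries has a part in the HERC6 difference was not tested.

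**Figure D3:**
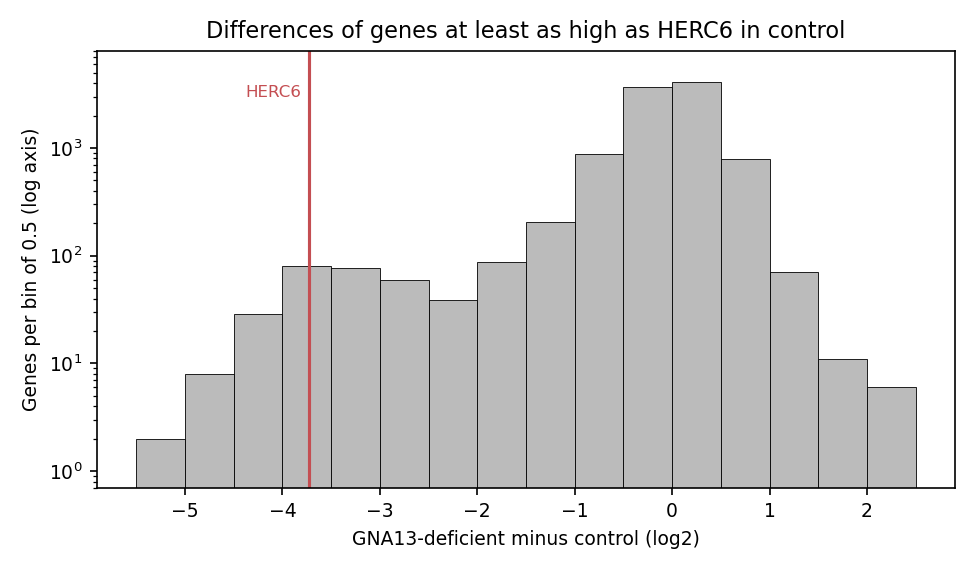
Number of genes (vertical log axis) by log2 difference, GNA13-deficient minus control (horizontal axis, bins of 0.5), for 10137 genes at least as high as HERC6 in control, with a red line at HERC6. A second peak holds 80 genes between -4.0 and -3.5. Genes low in control are left out, including any that rose, so falls and rises are not comparable in number.

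Genes that make or remove ISG15 conjugates were compared next. Besides HERC5 and HERC6 the list held 7 tested genes, of which 0 passed upward and 1 downward (against 13.1% and 16.6% of all genes), with a median of -0.16 beside -0.02 for all genes. The gene that passed was ARIH1, an E3 ligase, with a limma difference of -0.27 (standard error 0.06, adjusted p = 0.0326). Under median centring ARIH1 no longer passed (-0.06) and TRIM25 passed upward (0.28), whereas under quantile normalization ARIH1 still passed (-0.34). ISG15 itself had log2 values of 9.67 and 9.86 in control and 9.46 and 9.77 in GNA13-deficient libraries, which overlap. UBA7, the E1 that activates ISG15, differed by -0.16, and UBE2L6, the E2, by -0.03. Under median centring ISG15, UBA7 and UBE2L6 changed sign, which they did not under quantile normalization. USP18, which removes ISG15, differed by 0.42 with overlapping genotypes, and USP16, a deubiquitinase, by -0.21. TRIM25, an E3 ligase, differed by 0.07 and changed sign under quantile normalization.

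Among 17 interferon receptors, kinases and factors, 1 rose and 7 fell, against 13.1% and 16.6% of all genes, with a median of -0.24. STAT2, a subunit of the factor ISGF3, fell most, by 0.97 (standard error 0.09, limma adjusted p = 0.00298), from 11.43 and 11.34 to 10.52 and 10.30. The interferon regulatory factors IRF7 (-0.65), IRF8 (-0.58), IRF5 (-0.50) and IRF4 (-0.32) also fell, as did the receptor chains IFNAR1 (-0.33) and IFNGR2 (-0.26). IRF3 rose by 0.34. IRF9, the DNA-binding subunit of ISGF3, differed by -0.24 and IRF1 by 0.05, neither past the threshold. Under median centring the split was 4 higher and 2 lower, and under quantile normalization 2 higher and 7 lower.

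Interferon-stimulated genes moved in both directions. Of 44 tested, 5 rose and 21 fell, against 13.1% and 16.6% of all genes, with a median of -0.29. The split was 10 and 14 under median centring and 8 and 18 under quantile normalization. The largest measured falls were in OAS3, which makes an activator of RNase L, and LGALS3BP, a secreted glycoprotein. OAS3 had log2 values of 8.84 and 9.07 in control and 5.25 and 4.86 in GNA13-deficient libraries, a fall of 3.90 (standard error 0.21, adjusted p = 0.00114 from limma). LGALS3BP went from 10.46 and 10.81 to 7.003 and 6.735. CMPK2, a mitochondrial nucleotide kinase that the fit places beside them, had 12 and 14 reads in control and 0 in both GNA13-deficient libraries, so the size of its fall was not measured. It and RSAD2 passed the filter only through control, and holding them at 3 reads left the median at -0.29. The largest rises were in IFI44L (1.66), IFIT3, an RNA-sensing complex subunit (0.90), and PARP14, a mono-ADP-ribosyltransferase (0.77). Of the list, 26 of 35 genes with a RefSeq promoter held the core letters given above, and 5 of these rose and 10 fell. Of the 9 without it 0 rose and 4 fell. Falls of the size seen for HERC6, which is not in the list, stood beside rises. Whether interferon signaling has a part in the HERC6 difference was not tested.

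**Figure D4:**
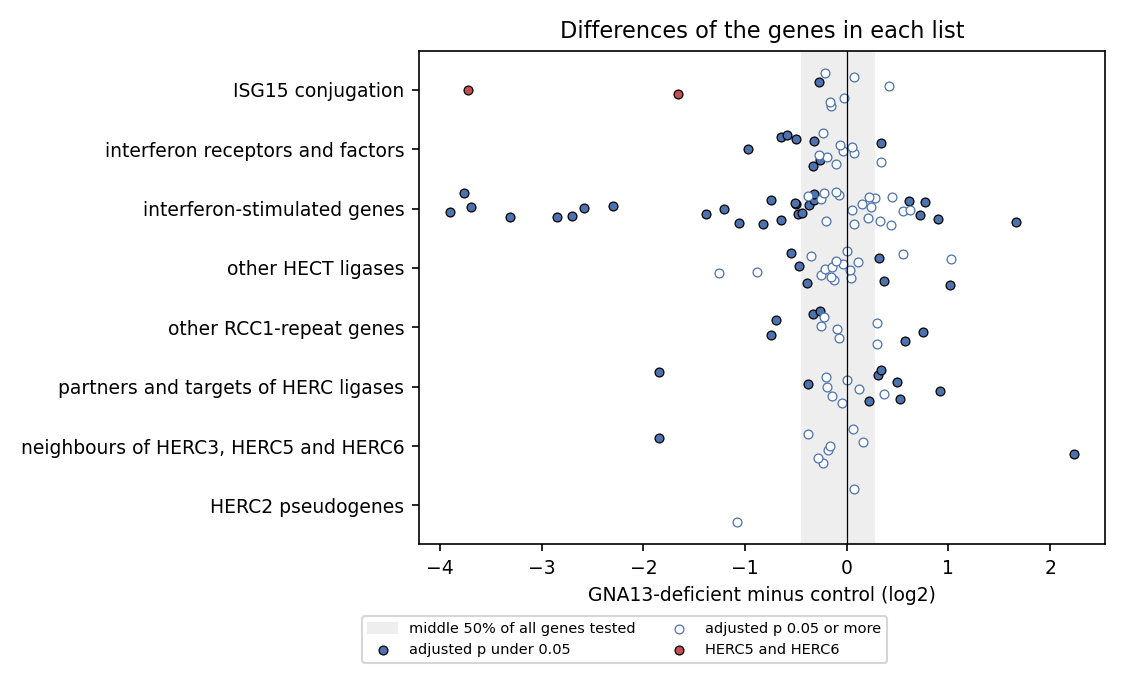
Log2 differences, GNA13-deficient minus control (horizontal axis), of the genes tested in each list (rows), with filled points for an adjusted p under 0.05, open points for the others, red points for HERC5 and HERC6 and a grey band for the middle 50% of all genes. Interferon-stimulated genes spread from -3.90 to 1.66 and the other HECT ligases from -1.26 to 1.021, and HERC6 stands apart from the rest of the ISG15 conjugation list.

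The other HECT ligases give a comparison within the enzyme class. Of 22 tested, 3 rose and 3 fell, 27.3% in all and near the 29.7% of all genes, with a median of -0.12. The split was 6 and 1 under median centring and 5 and 3 under quantile normalization. NEDD4, the founding member of its subfamily, rose by 1.01 (standard error 0.08, adjusted p = 0.00204 from limma), from 9.05 and 8.92 to 9.98 and 10.02. ITCH, a ligase named for an itching mouse, rose by 0.36 and HECTD3 by 0.32. KIAA0317, also known as AREL1, fell by 0.54, UBE3B by 0.47 and NEDD4L by 0.39. No called gene of this list came near the fall of HERC6.

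Other genes with RCC1 repeats went both ways, with 2 of 12 rising and 4 falling (13.1% and 16.6% of all genes) and a median of -0.16. RCC2, a regulator of chromosome passage through mitosis, rose by 0.57 from 14.20 and 14.20 to 14.80 and 14.74, and RPGR, a ciliary protein of the retina, rose by 0.75. RCBTB2 (-0.75), RCCD1 (-0.69), the kinase NEK9 (-0.33) and WBSCR16 (-0.27), also known as RCC1L, fell. RCC1 itself differed by 0.30 without passing. Under median centring the split was 4 and 2, and under quantile normalization 4 and 4.

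Described partners and targets of HERC ligases were next, with 6 of 15 rising and 2 falling (13.1% and 16.6% of all genes) and a median of 0.12. The split was 7 and 1 under median centring and 4 and 2 under quantile normalization. BRCA1, a repair factor and described target of HERC2, rose by 0.92 (standard error 0.08, adjusted p = 0.00276 from limma), from 11.05 and 10.87 to 11.92 and 11.84. The iron sensor FBXL5 rose by 0.49 and UBQLN1 by 0.30, besides IRF3. SMO, the Hedgehog signal transducer, fell by 1.84 on few reads (17 and 15 against 6 and 3), and USP20, a deubiquitinase and partner of HERC2, fell by 0.38. TSC2 (-0.05), NEURL4 (0.37), USP33 (0.00), RELA (-0.21), UBE3A (-0.14), RNF8 (0.12) and XPA (-0.19) did not pass, and MAF was listed at 0.

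On chromosome 4, genes around HERC6 were compared by position. Of 12 neighbours 9 were tested, 1 rose and 1 fell (22.2% in all, against 29.7% of all genes), and the median was -0.18. FAM13A, which ends 17.4 kb beyond HERC3 on the opposite strand, fell by 1.85 (standard error 0.27, limma adjusted p = 0.00925), from 8.15 and 7.83 to 5.82 and 6.46. SPP1, osteopontin, starts 403 kb before HERC6 and rose by 2.23, from 6.87 and 6.72 to 8.98 and 9.07. Between them, PPM1K (-0.18), PIGY (-0.17) and PKD2 (-0.29) did not pass, nor did TIGD2 (-0.38). NAP1L5, which lies within the span of HERC3 on the opposite strand, differed by 0.16. ABCG2, GPRIN3, MEPE and IBSP had at most 3 reads in any library. Apart from HERC5, the genes nearest to HERC6 with more than 3 reads, PPM1K and PIGY, thus showed no fall of its size.

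**Figure D5:**
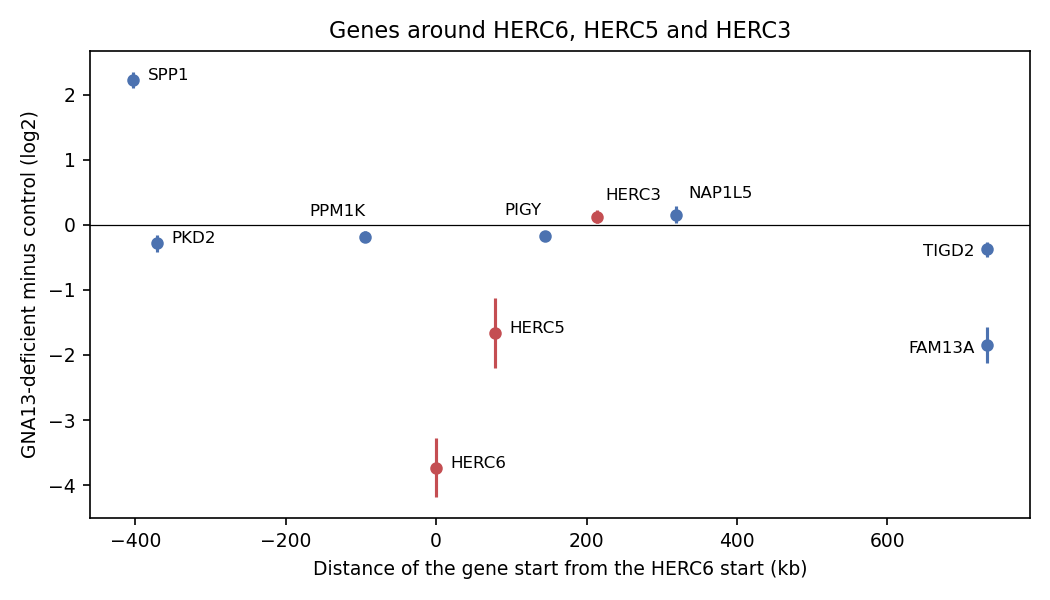
Log2 difference, GNA13-deficient minus control, with its standard error (vertical axis), for genes around HERC6 by distance of their start from that of HERC6 (horizontal axis, kb), with HERC members in red. HERC6 at -3.73 stands below all other genes plotted, such as PPM1K at -0.18 and PIGY at -0.17. FAM13A lies at -1.85, and HERC5, at -1.66, rests on 7 reads in control and 0 in GNA13-deficient libraries.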

How the data were processed

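RNA sequencing libraries of NUDUL1 cells, 2 per genotype, were analysed. Alignment was to hg19, with STAR, and the authors deposited normalized log2 values per gene, beside a row of total mapped reads on a linear scale. The submitters' processing notes name HTSeq. The normalization method is not given in the sources used here. Low values stepped in whole reads, which were recovered: 100% of values above 0 and up to 400 reads came out whole (within 0.01 read for the lowest values and 0.149 read at 400), and they gave the depth behind a value. Control replicate 2 lists a single read as 0.

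Genes with a value over 0, the lowest listed, in 2 or more libraries were tested in R 4.3.3 with limma 3.58.1 (a linear model with eBayes and a variance trend) on the deposited log2 values, without a pseudocount, with genotype as the only term and an adjusted p threshold of 0.05. The pipeline was tested on simulated data. The HERC members and all lists were chosen with earlier results of these data known. Named genes were the HERC members, GNA13, every member of lists of up to 17 genes (those named in the text), the 3 largest called differences in each direction of longer lists, and the genes nearest to HERC6 and HERC5. ITGAM, LYZ, CD4 and the marker lists served to check the cell type, and RSAD2 was named after its values were seen. Some list members are not reported here by name. Gene positions and lengths came from GENCODE on GRCh37, the assembly of hg19, with lengths for 14800 of the 16945 genes tested (87.3%). Promoters came from RefSeq on GRCh38.p14, and intervals and searches were computed in Python 3.11.15. Alternatives were other filters, pseudocounts of 1 and 10, quantile normalization, median centring, the replicate block, other variance priors, voom on recovered reads, coding length and leaving out each library.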

Additional observations from a re-analysis of the deposited data

How the results depend on the processing

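HERC6 kept its direction under every alternative run, and HERC4 was the one member to change sign, to 0.03 under median centring. Without a filter on low values, HERC6 (-3.73) no longer passed the threshold, 1999 genes passed over the whole table, and 0 HERC members, 0 genes of the ISG15 conjugation list, 1 interferon receptor or factor, 16 interferon-stimulated genes, 2 other HECT ligases, 2 other RCC1-repeat genes, 4 partners and targets and 1 neighbour. Without the variance trend 2718 genes passed. A filter at the median of the gene means dropped HERC5 and brought HERC1 (-0.35) and HERC2 (-0.53) past the threshold, for 3 members in all. With that filter 5579 genes passed over the whole table. Quantile normalization (-0.59) and voom (-0.49) also brought HERC2 past it, a pseudocount of 1 brought HERC5 (-2.08) and median centring HERC3 (0.33), giving 2 members each. The causes were not tested. With each library left out in turn, limma called 0 genes over the whole table, 0 HERC members and 0 genes of every list, and 5257 to 5600 genes had an unadjusted p under 0.05. HERC6 then ranged from -4.27 to -3.20. By coding length, the control means of HERC3, HERC4 and HERC6 per kilobase were 272, 538 and 33.8. Median centring of the lists was chosen after seeing the data.

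The genotypes share replicate numbers, but nothing in the sources says that equal numbers mark a pair. Deviations of equally numbered libraries had a correlation of 0.45 over 8473 genes. With the replicate number as a block, HERC4 (-0.18) also passed, giving 2 members, and 10 other HECT ligases, 4 neighbours and 1 HERC2 pseudogene passed.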

Other observations

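Close relatives among the interferon-stimulated genes differed in size and direction, which was noticed after the values were seen. IFITM1, IFITM2 and IFITM3, which restrict viral entry, fell by 3.31, 2.85 and 2.70 on the log2 scale, each less than HERC6 (-3.73). OAS1 and OAS2 fell by 0.48 and 0.44, beside 3.90 for OAS3. MX2 fell by 1.38 and MX1 rose by 0.72 (adjusted p = 0.000962 and 0.00603 from limma). The differences between these relatives were not tested.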
